A study of Mus musculus with 20 samples.

Results

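The 9 genes described here encode parts of the machinery with which cytotoxic lymphocytes kill: the granzymes *Gzma*, *Gzmb* and *Gzmk*, perforin (*Prf1*), the granule membrane protein gene *Nkg7*, Fas ligand (*Fasl*), the granzyme B inhibitor *Serpinb9*, the related serpin *Serpinb6b*, and the cysteine protease gene *Ctsw*. They were chosen by symbol, and all 9 were found among the 16740 genes of the count table of spleen and peripheral lymph nodes (pLNs) and among the 16784 genes of the table of mesenteric lymph nodes (mLNs). The study asked what loss of the methylcytosine oxidases Tet2 and Tet3 does to regulatory T (Treg) cells. Strand-specific mRNA sequencing was done on T cells sorted from C57BL/6 mice at 14 weeks of age.

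The WT mice were *Foxp3*Cre mice, in which a fusion of YFP and Cre is expressed from the *Foxp3* locus, and the DKO mice were *Tet2/3*fl/fl *Foxp3*Cre, so that both genotypes carried Cre and the deletion was limited to cells that had expressed Foxp3. Treg cells were sorted as CD4+YFP+ and the comparison population, named Foxp3- here, as CD4+YFP-. In DKO mice the Foxp3- population holds bystander cells with intact *Tet* genes together with ex-Treg cells that lost Foxp3. Each of these 4 groups had 2 libraries from pooled spleen and pLNs and 3 libraries from mLNs. The labels and methods call the libraries biological replicates without saying more, and the p-values measure the spread between these libraries only. Where a spleen and pLN library was left out, its group kept 1 library, which the test assumes to vary like the other groups, so that such p-values are no check over replicates of that group. The DKO mice of the spleen and pLN set were littermates whose splenomegaly differed in severity, and the labels do not say which library number came from which mouse.

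Cytotoxic granules deliver granzymes, which are serine proteases, through pores formed by perforin, and the granzymes then cleave substrates that lead to the death of the target cell. Serpins of the B clade bind granule proteases irreversibly and protect the cell that carries them, and Fas ligand acts on a separate route by engaging the death receptor Fas. In mouse Treg cells, granzyme B is known as a means of suppression, whereas *Gzmk* is a gene of memory-like effector T cells.

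Library depth was 13525932 to 15253141 counted reads in the spleen and pLN set and 9998478 to 15449158 in the mLN set. Levels are given in CPM, a gene's reads relative to the reads of its library, scaled by TMM, a normalization for library composition. A count of 3 reads, taken as the floor of detection in 1 library, corresponded to 0.172 to 0.241 CPM in spleen and pLNs and to 0.203 to 0.299 CPM in mLNs, which covers counting error only. *Foxp3* lay between 153 and 419 CPM in every Treg library and between 0.211 and 2.75 CPM in every Foxp3- library. *Tet2* and *Tet3* counts include exons outside the deleted parts and do not check the genotype: *Tet2* was highest in spleen and pLN DKO Treg replicate 1, at 8.01 CPM, against 1.11 to 2.76 CPM in the other libraries of that set, and spanned 7.69 to 12.8 CPM in mLNs, WT and DKO libraries together. *Tet3* in spleen and pLN Treg cells was at 31.0 and 30.6 CPM for WT mice and at 61.0 and 38.1 CPM for DKO mice, so that the counts of both targeted genes were higher in the library labelled DKO Treg replicate 1 than in WT Treg cells. Some DKO libraries stood apart from their groups. The immunoglobulin joining chain, a plasma cell transcript annotated as *Jchain* or *Igj*, was at 474 CPM in mLN DKO Foxp3- replicate 2 and at 412 CPM in mLN DKO Treg replicate 2, against 2.14 to 46.8 CPM in the other mLN DKO libraries. It was also high in the spleen and pLN DKO libraries numbered 1, at 119 CPM in Foxp3- cells and 88.4 CPM in Treg cells, against 23.6 and 15.4 CPM in those numbered 2. These libraries were compared with and without the pairs concerned, and their part in the results was not tested.

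The promoter windows of 4 members are shown because they differ in CG content, the substrate sequence of TET enzymes, and because these genes carried the clearest differences below. Each window runs from 250 bases before to 50 bases after the RefSeq gene start (build GRCm38.p6), written along the gene's strand with CG dinucleotides in capitals.
Gzmb promoter (chr14:56262285-56262584, - strand): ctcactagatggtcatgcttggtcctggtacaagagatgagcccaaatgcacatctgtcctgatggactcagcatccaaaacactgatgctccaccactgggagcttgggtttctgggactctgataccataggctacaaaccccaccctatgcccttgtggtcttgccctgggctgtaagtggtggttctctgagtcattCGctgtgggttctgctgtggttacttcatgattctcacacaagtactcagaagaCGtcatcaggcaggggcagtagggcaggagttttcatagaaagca
Gzmk promoter (chr13:113180916-113181215, - strand): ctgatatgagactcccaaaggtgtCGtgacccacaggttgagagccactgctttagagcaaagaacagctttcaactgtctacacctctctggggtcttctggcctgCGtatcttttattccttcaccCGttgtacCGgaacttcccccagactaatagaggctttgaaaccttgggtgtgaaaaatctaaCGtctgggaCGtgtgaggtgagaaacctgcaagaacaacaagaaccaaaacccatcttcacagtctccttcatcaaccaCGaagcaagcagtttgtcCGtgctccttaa
Nkg7 promoter (chr7:43436888-43437187, + strand): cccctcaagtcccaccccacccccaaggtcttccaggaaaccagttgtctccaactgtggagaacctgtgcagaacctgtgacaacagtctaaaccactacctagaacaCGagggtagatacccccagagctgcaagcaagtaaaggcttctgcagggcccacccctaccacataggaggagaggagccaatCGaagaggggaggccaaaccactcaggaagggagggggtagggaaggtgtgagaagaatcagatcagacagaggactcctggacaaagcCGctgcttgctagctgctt
Serpinb6b promoter (chr13:32965011-32965310, + strand): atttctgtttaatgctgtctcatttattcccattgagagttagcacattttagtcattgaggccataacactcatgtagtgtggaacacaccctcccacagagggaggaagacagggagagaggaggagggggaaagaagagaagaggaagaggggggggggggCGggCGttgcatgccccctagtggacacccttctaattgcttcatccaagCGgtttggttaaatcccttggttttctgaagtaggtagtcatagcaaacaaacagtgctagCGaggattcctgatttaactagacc

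RefSeq windows matched 8 of the 9 members, the exception being *Ctsw*. These windows held 2 CG dinucleotides at *Gzmb*, 3 at *Nkg7*, 4 at *Serpinb6b*, 5 each at *Gzma*, *Prf1* and *Serpinb9*, 7 at *Fasl* and 8 at *Gzmk*, beside a median of 7 over the 32851 windows of all genes. Thus the *Gzmb* window was among the poorer ones, since 23.3% of all windows held as few or fewer. The Runx motif TGTGGT, read on both strands, occurred in 5 of the 8 windows (*Gzma*, *Gzmb*, *Prf1*, *Nkg7* and *Serpinb9*) and in 16.8% of all windows, with 2 matches at *Gzmb*. The T-box motif GGTGTGA was found at *Nkg7* and *Gzmk* and in 3.98% of all windows. The AP-1 motif TGANTCA was found at *Gzmb* and in 7.81% of all windows, and the STAT motif TTCNNNGAA was found at *Gzmb* and *Nkg7* and in 8.3% of all windows. The forkhead motif TGTTTAC was in none of the 8 windows and in 3.65% of all windows. No match overlapped a match to another motif. A match describes letters in these windows and not binding.

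The genes lie on 6 chromosomes, and 4 of them share chromosome 13. In build NCBIM37 (mm9), the build of the counts, *Serpinb6b* (chr13:33057182-33070936) and *Serpinb9* (chr13:33095119-33109826) lie 24.2 kb apart on the plus strand within a cluster of B-clade serpin genes. *Gzma* (chr13:113884033-113891187) and *Gzmk* (chr13:113961816-114016116) lie 70.6 kb apart on the minus strand. *Gzmb* is at chr14:56877693-56881097, *Prf1* at chr10:60760584-60767011, *Nkg7* at chr7:50692443-50693616, *Fasl* at chr1:163710820-163718626 and *Ctsw* at chr19:5465240-5468498. Read counts cover the exons of each gene. Reads that match near-identical paralogs were assigned to a single place by the alignment settings, so the values of *Gzmb* and of both serpins are uncertain to the extent that such reads occur.

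To compare genes with each other, levels per transcript length (TPM, as deposited) were used. In mLN WT Treg cells the order of mean TPM was *Ctsw* (129 ± 4.71, SD, n = 3), *Serpinb6b* (38.5 ± 3.00), *Nkg7* (23.7 ± 4.18), *Serpinb9* (18.9 ± 0.766), *Gzmb* (17.3 ± 7.87), *Prf1* (10.4 ± 1.76), *Gzma* (7.90 ± 0.879), *Fasl* (2.68 ± 0.679) and *Gzmk* (0.885 ± 0.619). The libraries of *Gzmb* overlapped those of *Nkg7*, *Serpinb9* and *Prf1*, whereas all other neighbours in this order stood clear of each other. In mLN DKO Treg cells *Serpinb6b* came first at 99.5 ± 33.4 TPM, followed by *Nkg7* at 91.4 ± 22.0 and *Ctsw* at 82.1 ± 41.3, with overlapping libraries. In mLN WT Foxp3- cells the order was led by *Ctsw* at 90.2 ± 7.55 TPM and *Prf1* at 47.5 ± 1.52, and *Gzmb* was last at 1.46 ± 0.582. In spleen and pLNs *Nkg7* led all 4 groups, and its highest mean was 289 ± 82.1 TPM in DKO Treg cells (n = 2). The plot of levels by library shows these values as log2(CPM + 1).

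**Figure D1:**
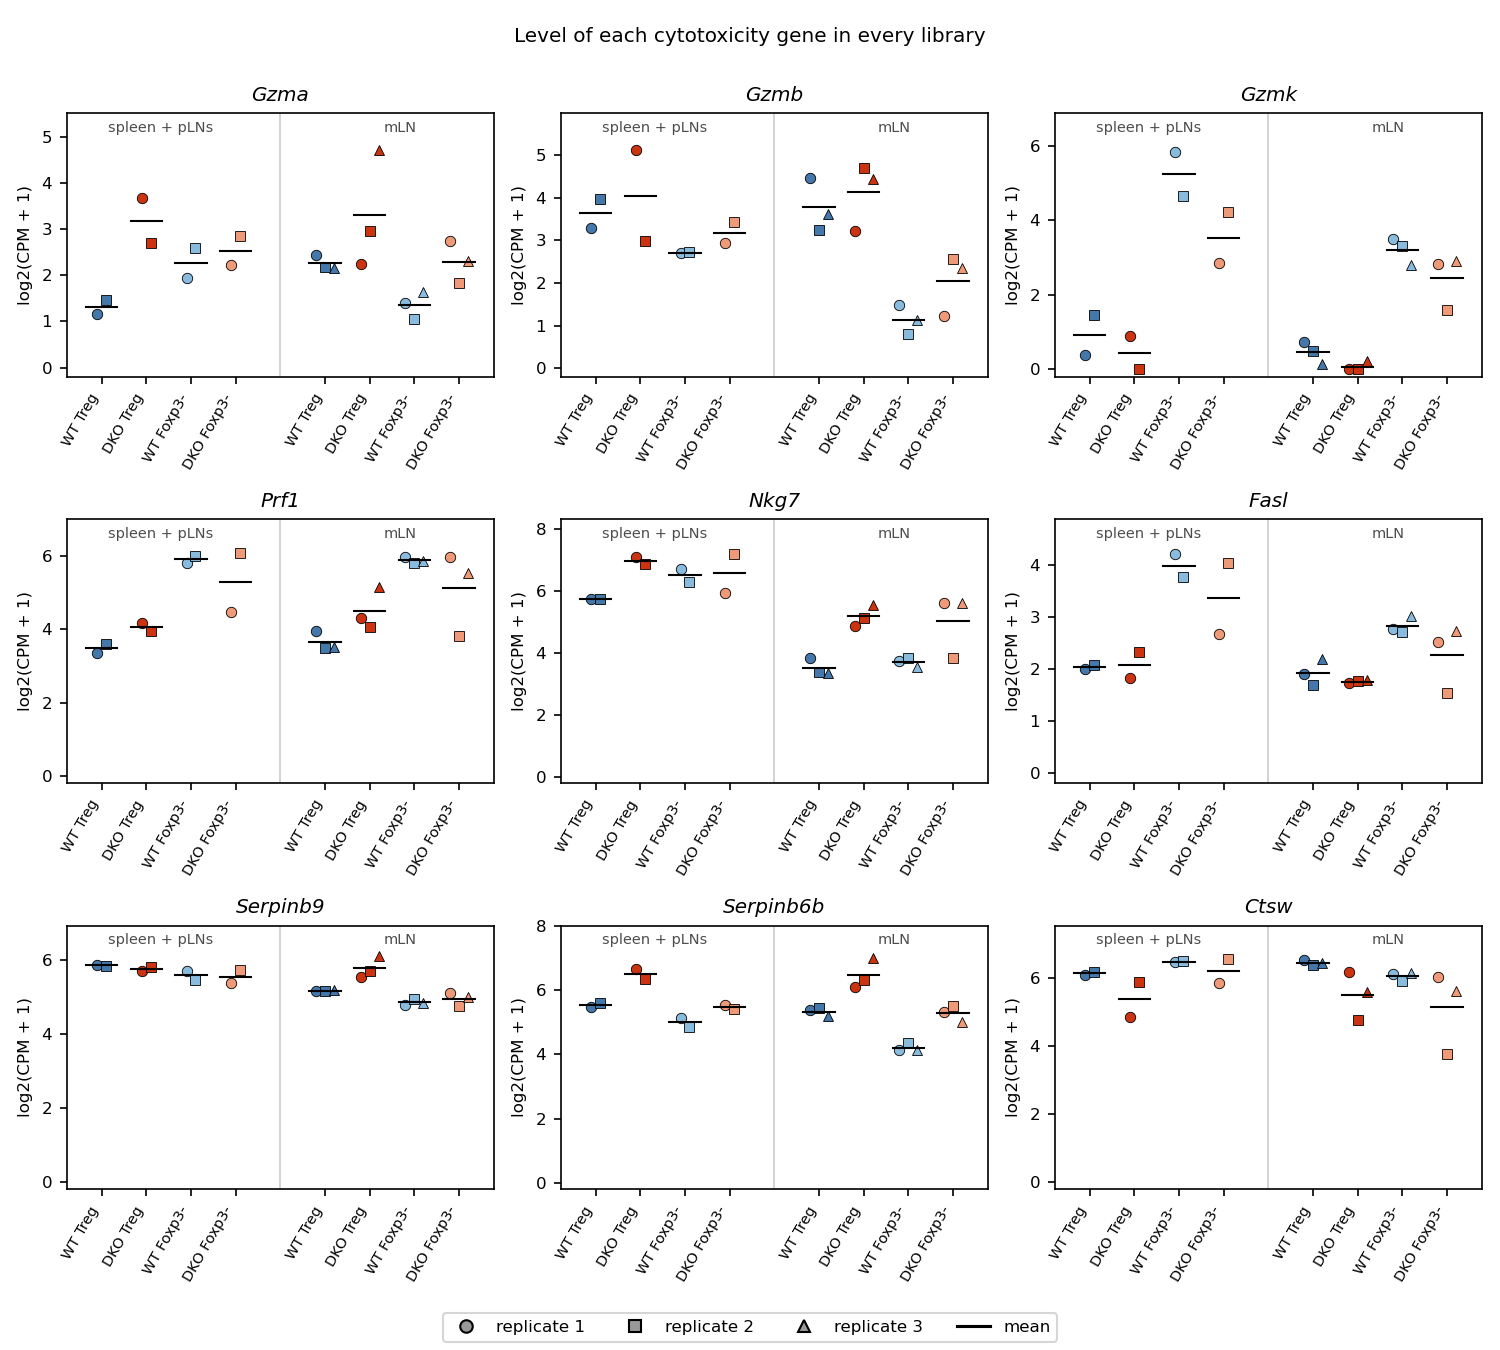
Levels of the 9 genes as log2(CPM + 1) in every library of both tissues, with points for libraries, coloured by group, and bars for the means of these log values. In mLNs the 3 DKO Treg libraries of *Serpinb6b* and *Nkg7* sit above all WT Treg libraries, and *Gzmk* had 2 reads in all in DKO Treg cells.

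Across the 2 genotypes of mLN Treg cells, 3 of the 9 genes rose in DKO cells and none fell: *Serpinb6b*, *Nkg7* and *Serpinb9*. Over all 16784 genes tested, 11.9% were called in this comparison, at an adjusted p of 0.05 or less and a fold change of 1.5 or more. The members' median log2 fold change was 0.64, beside 0.00 for all genes, and 6 members were higher and 3 lower. In spleen and pLNs 2 of the 9 rose in DKO Treg cells, *Gzma* and *Serpinb6b*, where 1.74% of genes were called, with a median of 0.64 beside 0.02. Hence *Serpinb6b* was the member called as higher in both tissues. *Nkg7* was also higher without overlap in both (1.77 in mLNs and 1.25 in spleen and pLNs), but edgeR did not call it in the latter (adjusted p = 0.0655). Among Foxp3- cells, *Nkg7* and *Serpinb6b* rose in DKO mLNs, where 3.43% of genes were called. In spleen and pLN Foxp3- cells edgeR called 0 of 9 members, where 0.819% of genes were called, with 2 members at an unadjusted p under 0.05 and 0 called by DESeq2.

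In WT mLNs, Treg cells were above Foxp3- cells in *Gzmb* and *Serpinb6b* and below them in *Gzmk*, *Prf1* and *Fasl*, so that 5 of 9 members passed where 10.1% of all genes did. In WT spleen and pLNs *Gzmk*, *Prf1* and *Fasl* were again lower in Treg cells and none was higher, against 4.0% of genes called. In DKO mLNs *Gzmb*, *Serpinb9* and *Serpinb6b* were higher and *Gzmk* lower in Treg cells, where 11.2% of genes were called, and in DKO spleen and pLNs *Serpinb6b* was higher and *Gzmk* lower, where 3.77% were called. Comparisons of genotypes and of cell types in a tissue share libraries, and their values are therefore given side by side without a test of likeness. Whether the effect of genotype differed between Treg and Foxp3- cells was tested as an interaction: edgeR called 0 of 9 members in either tissue, where calls made up 0.00611% of the genes of spleen and pLNs and 0.280% of those of mLNs. At an unadjusted p under 0.05 there were 2 members in each tissue, *Gzma* and *Nkg7* in spleen and pLNs and *Prf1* and *Serpinb9* in mLNs. DESeq2 called 0 of 9 in either tissue as well.

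**Figure D2:**
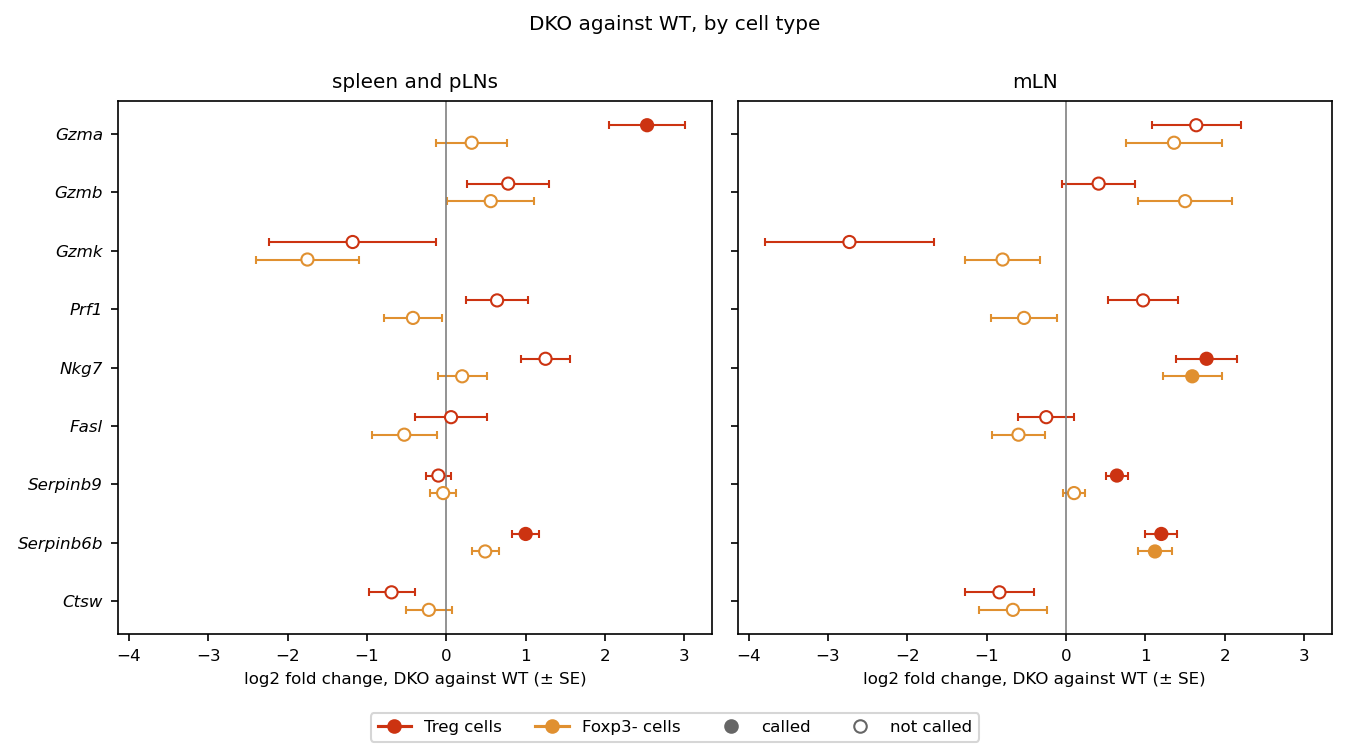
Log2 fold changes of DKO over WT (edgeR, with SE bars) for the 9 genes in Treg and Foxp3- cells of both tissues, where filled points passed the test. *Serpinb6b* lies to the right of 0 in all 4 comparisons, from 0.49 to 1.2, and passed in 3 of them.

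The granzymes were *Gzma*, *Gzmb* and *Gzmk*. *Gzmb*, which encodes the granzyme that cleaves after aspartate, was at 21.0, 8.44 and 11.2 CPM in mLN Treg cells of WT mice, against 8.25, 25.1 and 20.8 CPM in those of DKO mice. The WT Foxp3- libraries held 1.79, 0.743 and 1.20 CPM, and the DKO Foxp3- libraries 1.33, 4.93 and 4.07 CPM. Every mLN Treg library was therefore above every Foxp3- library, while the genotypes overlapped within each cell type. The difference between Treg and Foxp3- cells had a log2 fold change of 3.46 (SE 0.56, adjusted p = 0.00115) in WT and 2.37 (SE 0.50, adjusted p = 0.00535) in DKO mLNs. The effect of genotype on *Gzmb* did not pass in Treg cells (0.41, SE 0.46, adjusted p = 0.556) or in Foxp3- cells (1.5, SE 0.59, adjusted p = 0.187), and without DKO Foxp3- replicate 1 the latter was 1.88 (adjusted p = 0.0412). In spleen and pLNs the WT Treg libraries were at 8.76 and 14.7 CPM and the DKO Treg libraries at 33.4 and 6.89 CPM, so that one DKO library lay above and the other below both WT libraries. The study reports *Gzmb* as markedly increased in Treg cells of the littermate with more severe splenomegaly, and as unchanged or mildly raised in the other. By that description DKO Treg replicate 1 would come from the more severely affected mouse, which the labels do not state. Removing DKO Treg replicate 1 turned the difference from 0.78 (adjusted p = 0.436) to -0.77 (adjusted p = 0.667), and removing replicate 2 gave 1.5 (adjusted p = 0.0292), each from the 1 DKO Treg library left, with the spread taken from the other groups. With both DKO libraries numbered 1 left out, which leaves 1 library in each DKO group and takes the spread from WT, *Gzmb* was called as lower in DKO Treg cells (-0.77, adjusted p = 0.00902). The Foxp3- libraries there were closer together, with 5.47 and 5.63 CPM for WT mice and 6.59 and 9.78 CPM for DKO mice. With both DKO libraries numbered 1 left out, the Foxp3- difference was 0.82, opposite in sign to that of Treg cells and from the 1 DKO library left.

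*Gzma*, which encodes a tryptase, was measured in spleen and pLN Treg cells at 1.23 and 1.74 CPM for WT mice, and at 11.7 and 5.46 CPM for DKO mice. The groups did not overlap, and *Gzma* rose in DKO cells with a log2 fold change of 2.53 (SE 0.48, adjusted p = 0.0259). With 2 libraries a group this call rested on nearly every library: the adjusted p was 0.428 without WT replicate 1, 0.397 without WT replicate 2 and 0.404 without DKO replicate 1. The mLN WT Treg libraries held 4.44, 3.56 and 3.44 CPM and the DKO Treg libraries 3.74, 6.83 and 25.3 CPM. DKO replicate 3 was thus far above the others and replicate 1 within the WT range, and the difference of 1.64 (SE 0.56) missed the threshold (adjusted p = 0.0551), but passed without DKO replicate 1 (2.07, adjusted p = 0.0114) or without replicate 2 (1.92, adjusted p = 0.0458). The mLN Foxp3- levels were 1.62, 1.08 and 2.09 CPM for WT mice and 5.68, 2.53 and 3.98 CPM for DKO mice, without overlap, yet the test did not call the difference (1.36, SE 0.61, adjusted p = 0.255). For spleen and pLN Foxp3- cells, WT libraries gave 2.81 and 5.06 CPM and DKO libraries 3.64 and 6.22 CPM.

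*Gzmk*, which encodes a granzyme of the same chromosome 13 pair as *Gzma*, was a gene of the Foxp3- cells. It was at 55.9 and 24.3 CPM in the spleen and pLN WT Foxp3- libraries whereas the WT Treg libraries held 0.307 and 1.74 CPM. In mLNs the WT Foxp3- libraries held 10.4, 8.91 and 5.98 CPM and the WT Treg libraries 0.657, 0.414 and 0.0984 CPM. No library of Treg cells reached any of the Foxp3- libraries in either tissue. The log2 fold change of Treg over Foxp3- cells was -5.25 (SE 0.82, adjusted p = 0.00298) in WT spleen and pLNs and -4.36 (SE 0.61, adjusted p = 0.000374) in WT mLNs. The former call was lost without WT Treg replicate 1 (adjusted p = 0.102) or WT Foxp3- replicate 1 (adjusted p = 0.0717), and with the library number as a block within genotype (adjusted p = 0.0916).

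In DKO mLN Treg cells *Gzmk* had 2 reads in all, both in replicate 3, against 14 reads in WT Treg cells and 171 in DKO Foxp3- cells. The ratio of these levels in CPM was 0.126 for DKO over WT Treg cells, with a 95% exact interval of 0.0139 to 0.550 that covers counting error only, and 0.0111 (0.00133 to 0.0406) for DKO Treg over DKO Foxp3- cells. The first difference did not pass (adjusted p = 0.0924), and the DKO Treg libraries all lay under the floor. The second passed (adjusted p = 0.000217). In spleen and pLN DKO cells *Gzmk* was at 0.859 and 0 CPM in Treg cells and at 6.22 and 17.7 CPM in Foxp3- cells. There the difference between cell types passed (-4.68, SE 0.88, adjusted p = 0.00972), but not without DKO Treg replicate 1 (adjusted p = 0.0826) or replicate 2 (adjusted p = 0.0895), nor with the block (adjusted p = 0.148). Between genotypes, Foxp3- cells of DKO spleen and pLNs lay below both WT libraries without the test calling it (-1.75, SE 0.65, adjusted p = 0.259), and without DKO replicate 2 the value was -2.69, from the 1 DKO library left. The DKO Foxp3- libraries of mLNs held 6.12, 2.04 and 6.45 CPM, of which 2 lay within the WT range (-0.80, SE 0.47, adjusted p = 0.398).

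The make-up of the 3 granzymes was expressed as shares of their summed TPM. *Gzmk* made up 70.0% to 90.9% of the sum in the WT Foxp3- libraries of both tissues, 28.8% to 61.5% in the DKO Foxp3- libraries and at most 15.1% in Treg libraries. *Gzmb* made up 56.6% to 77.6% in WT Treg libraries and 33.6% to 69.5% in DKO Treg libraries. The DKO Foxp3- shares of *Gzmk* did not overlap with those of WT in either tissue. In DKO Treg cells *Gzma* took 30.5% to 65.9% of the sum, and 13.6% to 38.5% in WT Treg cells. It led over *Gzmb* in mLN DKO Treg replicate 3, at 65.9%, and in spleen and pLN DKO Treg replicate 2, at 56.1%. Among DKO Foxp3- libraries *Gzmb* led in mLN replicate 2, at 38.9% against 28.8% for *Gzmk*. These shares are descriptions without a test.

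**Figure D3:**
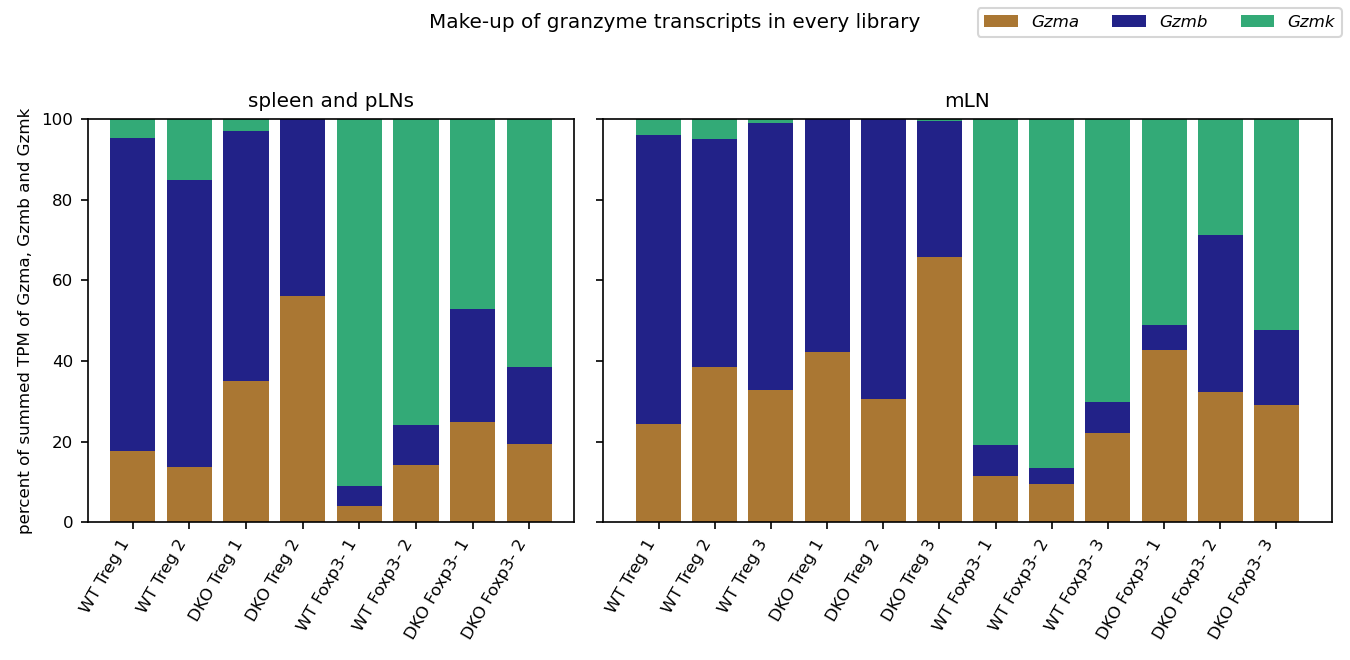
Stacked bars of the share (percent) of *Gzma*, *Gzmb* and *Gzmk* in their summed TPM, one bar per library. *Gzmk* fills 70.0% to 90.9% of the WT Foxp3- bars and 0% to 15.1% of the Treg bars.

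Perforin and Fas ligand were lower in WT Treg than in WT Foxp3- cells, as *Gzmk* was, and edgeR with all libraries called neither in DKO cells. *Prf1*, which encodes the pore-forming protein, was at 14.5, 10.3 and 10.4 CPM in mLN WT Treg cells and at 61.9, 55.4 and 57.6 CPM in WT Foxp3- cells (-2.31, SE 0.44, adjusted p = 0.00325). Spleen and pLNs gave 9.30 and 11.1 CPM against 55.5 and 63.2 CPM (-2.54, SE 0.40, adjusted p = 0.00326). The spleen and pLN call was lost without WT Treg replicate 1 (adjusted p = 0.111) or 2 (0.0776), without WT Foxp3- replicate 2 (0.0544), and with the library number as a block within genotype (0.0622). The mLN call was kept whichever library was left out. DKO Treg cells held 19.0, 15.7 and 34.7 CPM in mLNs and 17.1 and 14.6 CPM in spleen and pLNs, in each tissue above every WT Treg library, but the test passed in neither (0.97, SE 0.44, adjusted p = 0.142 and 0.64, SE 0.39, adjusted p = 0.393). With the 2 mLN Treg groups fitted alone the difference was called (0.98, SE 0.27, adjusted p = 0.0237). DKO Foxp3- cells varied most, with 62.6, 13.2 and 45.3 CPM in mLNs and 21.2 and 67.6 CPM in spleen and pLNs. Their low libraries were replicate 2 in mLNs and replicate 1 in spleen and pLNs, the libraries described above as high in joining chain. Leaving out mLN DKO Foxp3- replicate 2 gave a *Prf1* difference between DKO Treg and Foxp3- cells of -1.26 (adjusted p = 0.00114), in place of -0.80 (adjusted p = 0.217). In DKO spleen and pLNs both Treg libraries lay below both Foxp3- libraries in *Prf1*, and the difference of -1.48 (SE 0.38) missed the threshold in edgeR (adjusted p = 0.0557) and passed in DESeq2 (adjusted p = 0.0187). Without DKO Foxp3- replicate 1 it was -2.09, from the 1 library left in that group. Leaving out both mLN DKO libraries numbered 2, an alternative chosen after seeing the data, *Prf1* passed as higher in DKO than WT Treg cells (1.19, adjusted p = 0.000473).

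*Fasl*, the ligand of the death receptor Fas, was low throughout Treg cells, at 2.71, 2.23 and 3.54 CPM in mLN WT, 2.29, 2.37 and 2.43 CPM in mLN DKO, 3.00 and 3.20 CPM in spleen and pLN WT and 2.52 and 3.96 CPM in spleen and pLN DKO cells. No effect of genotype was called in Treg cells, with differences of -0.25 (SE 0.35) in mLNs and 0.06 (SE 0.45) in spleen and pLNs. WT Foxp3- cells were above WT Treg cells at 5.79, 5.54 and 7.08 CPM in mLNs (-1.12, SE 0.34, adjusted p = 0.0395) and at 17.3 and 12.6 CPM in spleen and pLNs (-2.27, SE 0.44, adjusted p = 0.0119). Both calls were sensitive to single libraries: without any 1 of the 6 mLN libraries the adjusted p was 0.0592 to 0.154, and without any 1 of the 4 spleen and pLN libraries it was 0.0750 to 0.215. In DKO Foxp3- cells *Fasl* was at 4.70, 1.90 and 5.57 CPM in mLNs and at 5.34 and 15.4 CPM in spleen and pLNs. As for *Prf1*, the lowest values came from mLN replicate 2 and from spleen and pLN replicate 1. Between DKO cell types *Fasl* differed by -1.68 (SE 0.44, adjusted p = 0.0566) in spleen and pLNs, without overlap, which DESeq2 called (adjusted p = 0.0298), and by -2.26 without DKO Foxp3- replicate 1, from the 1 library left in that group. In DKO mLNs the difference was -0.77 (SE 0.34, adjusted p = 0.147), and -1.15 (adjusted p = 0.00249) without DKO Foxp3- replicate 2.

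*Nkg7* encodes a membrane protein of cytotoxic granules that is needed for their release. The mLN WT Treg libraries held 13.1, 9.51 and 9.15 CPM and the DKO Treg libraries 28.2, 34.1 and 46.2 CPM. All DKO libraries were above the highest WT library, and *Nkg7* rose with a log2 fold change of 1.77 (SE 0.38, adjusted p = 0.00634). Spleen and pLN Treg levels were 53.0 and 52.5 CPM for WT mice, and 135 and 115 CPM for DKO mice, again without overlap (1.25, SE 0.31), but the adjusted p of 0.0655 missed the threshold, which DESeq2 (adjusted p = 0.0158) and edgeR on the 2 groups alone (0.00112) passed. In mLN Foxp3- cells *Nkg7* was at 12.4, 13.3 and 10.6 CPM in WT and at 48.5, 13.3 and 48.4 CPM in DKO mice. It rose there too (1.59, SE 0.37, adjusted p = 0.0346), and DKO replicate 2 was level with the highest WT library. Without that library the difference was 2.0 (adjusted p = 7.5e-05), whereas without DKO replicate 3 or any WT library the adjusted p was 0.0846 to 0.140. The spleen and pLN Foxp3- libraries, with 103 and 78.2 CPM for WT mice and 60.8 and 147 CPM for DKO mice, overlapped. Between Treg and Foxp3- cells *Nkg7* was not called in either genotype or tissue, but it was lower in WT spleen and pLN Treg cells with those 2 groups fitted alone (-0.79, SE 0.08, adjusted p = 2.71e-18). That fit takes its spread from 2 libraries a group, and the fit of all 4 groups gave -0.78 (SE 0.31, adjusted p = 0.256). In DKO spleen and pLNs *Nkg7* was on the side of Treg cells without DKO Foxp3- replicate 2 (1.04) and on the side of Foxp3- cells without replicate 1 (-0.24), each from 1 library in that group.

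*Serpinb9* encodes the inhibitor of granzyme B, and it was the steadiest member, with a biological coefficient of variation of 12.7% in mLNs and 13.2% in spleen and pLNs. In mLN Treg cells it was at 35.0, 35.1 and 35.7 CPM in WT and at 45.8, 51.4 and 68.1 CPM in DKO, and it rose by 0.64 (SE 0.14, adjusted p = 0.00575). Without DKO Treg replicate 3 the log2 fold change was 0.46, below the fold required for a call (adjusted p = 0.0168). The markers of dividing cells moved with it there, all 4 of 4 being called where 11.9% of all genes were: their summed level was 104 to 164 CPM in mLN WT Treg cells and 291 to 402 CPM in DKO Treg cells, and their part in the difference was not tested. Their sum was also higher where *Serpinb9* was not called. It was 56.8 to 68.1 CPM in WT and 98.7 to 128 CPM in DKO mLN Foxp3- cells. In spleen and pLN Treg cells it was 49.1 to 57.8 CPM in WT and 92.4 to 148 CPM in DKO. *Serpinb9* in mLN Foxp3- libraries was at 26.6, 30.1 and 27.9 CPM in WT and at 33.5, 26.2 and 31.2 CPM in DKO, which overlapped (0.10, SE 0.14, adjusted p = 0.733). The DKO Treg libraries were all above the DKO Foxp3- libraries (0.86, SE 0.14, adjusted p = 0.000861). Spleen and pLN levels were 58.1 and 56.9 CPM in WT Treg, 51.5 and 55.6 CPM in DKO Treg, 51.7 and 43.6 CPM in WT Foxp3- and 40.6 and 52.1 CPM in DKO Foxp3- cells, and no comparison was called. Set against the protease it inhibits, *Serpinb9* stood at 0.696 to 1.73 times *Gzmb* in mLN WT Treg cells on the TPM scale and at 0.854 to 2.31 times in DKO Treg cells. In mLN Foxp3- cells the ratio was 6.19 to 16.9 in WT and 2.22 to 10.5 in DKO libraries. The spleen and pLN ratio was 1.61 and 2.76 in WT Treg cells, below the 3.23 and 3.94 of WT Foxp3- cells, whereas DKO Treg cells, at 0.642 and 3.36, lay on either side of DKO Foxp3- cells, at 2.56 and 2.22.

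*Serpinb6b*, a B-clade serpin gene next to *Serpinb9*, gave the most regular difference between genotypes. Its mLN levels were 40.7, 41.9 and 35.1 CPM in WT Treg cells and 66.9, 77.6 and 126 CPM in DKO Treg cells. They were 16.6, 19.5 and 16.5 CPM in WT Foxp3- cells and 39.1, 44.8 and 30.8 CPM in DKO Foxp3- cells. Each DKO group lay wholly above its WT group, by 1.2 (SE 0.20, adjusted p = 0.00161) in Treg cells and 1.12 (SE 0.21, adjusted p = 0.0135) in Foxp3- cells, and the interaction of 0.07 (SE 0.29) did not pass (adjusted p = 1). The Treg difference was called whichever library was left out. The Foxp3- difference had an adjusted p of 0.0541 to 0.0738 without any 1 of the WT libraries and of 0.0592 with those 2 groups fitted alone. In spleen and pLNs the Treg libraries were at 43.1 and 46.9 CPM for WT mice, against 100.3 and 79.5 CPM for DKO mice (1.0, SE 0.17, adjusted p = 0.0146). That call was lost without WT replicate 1 (adjusted p = 0.357), WT replicate 2 (0.305) or DKO replicate 1 (0.215). With both DKO libraries numbered 1 left out, an alternative chosen after seeing the data that leaves 1 library in each DKO group and takes the spread from WT, *Serpinb6b* (0.82, adjusted p = 5.42e-08) and *Gzma* (1.87, adjusted p = 2.68e-05) were called. The Foxp3- libraries of spleen and pLNs, 34.3 and 28.1 CPM for WT mice against 45.6 and 41.7 CPM for DKO mice, did not overlap either, but the difference was not called (0.49, SE 0.17, adjusted p = 0.224). Treg cells were above Foxp3- cells in WT mLNs (1.16, SE 0.21, adjusted p = 0.00235), DKO mLNs (1.23, SE 0.20, adjusted p = 0.00108) and DKO spleen and pLNs (1.04, SE 0.17, adjusted p = 0.00411), but the last was lost without DKO Treg replicate 1 (0.86, adjusted p = 0.0514) and with those 2 groups fitted alone (adjusted p = 0.0764).

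*Ctsw* encodes cathepsin W, a cysteine protease of cytotoxic lymphocytes. In mLN Treg cells its level was 92.6, 82.9 and 85.6 CPM for WT mice and 71.9, 26.3 and 47.5 CPM for DKO mice. All DKO libraries lay below the WT libraries, in the direction opposite to *Nkg7* and *Serpinb6b*, but they were so spread that the difference was not called (-0.84, SE 0.43, adjusted p = 0.194). It passed with the 2 groups fitted alone (-0.83, adjusted p = 0.0455). In spleen and pLN Treg cells *Ctsw* was at 67.9 and 71.3 CPM for WT mice, against 28.2 and 58.2 CPM for DKO mice (-0.69, SE 0.29, adjusted p = 0.207), and without DKO replicate 2 the difference was -1.30, from the 1 DKO library left. The Foxp3- levels were 69.0, 59.3 and 70.7 CPM in mLN WT, 64.8, 12.7 and 48.3 CPM in mLN DKO, 87.2 and 89.4 CPM in spleen and pLN WT, and 57.1 and 94.5 CPM in spleen and pLN DKO cells. Between DKO cell types in spleen and pLNs *Ctsw* differed by -0.81 (SE 0.29, adjusted p = 0.195), which was called with the library number as a block within genotype (-0.86, SE 0.12, adjusted p = 0.0361). With every library kept, the fit of all 4 groups without the block called no comparison of *Ctsw*. Between DKO cell types in spleen and pLNs the difference was -1.43 without DKO Treg replicate 2 and -1.14 without DKO Foxp3- replicate 1, each from the 1 library left in that group.

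**Figure D4:**
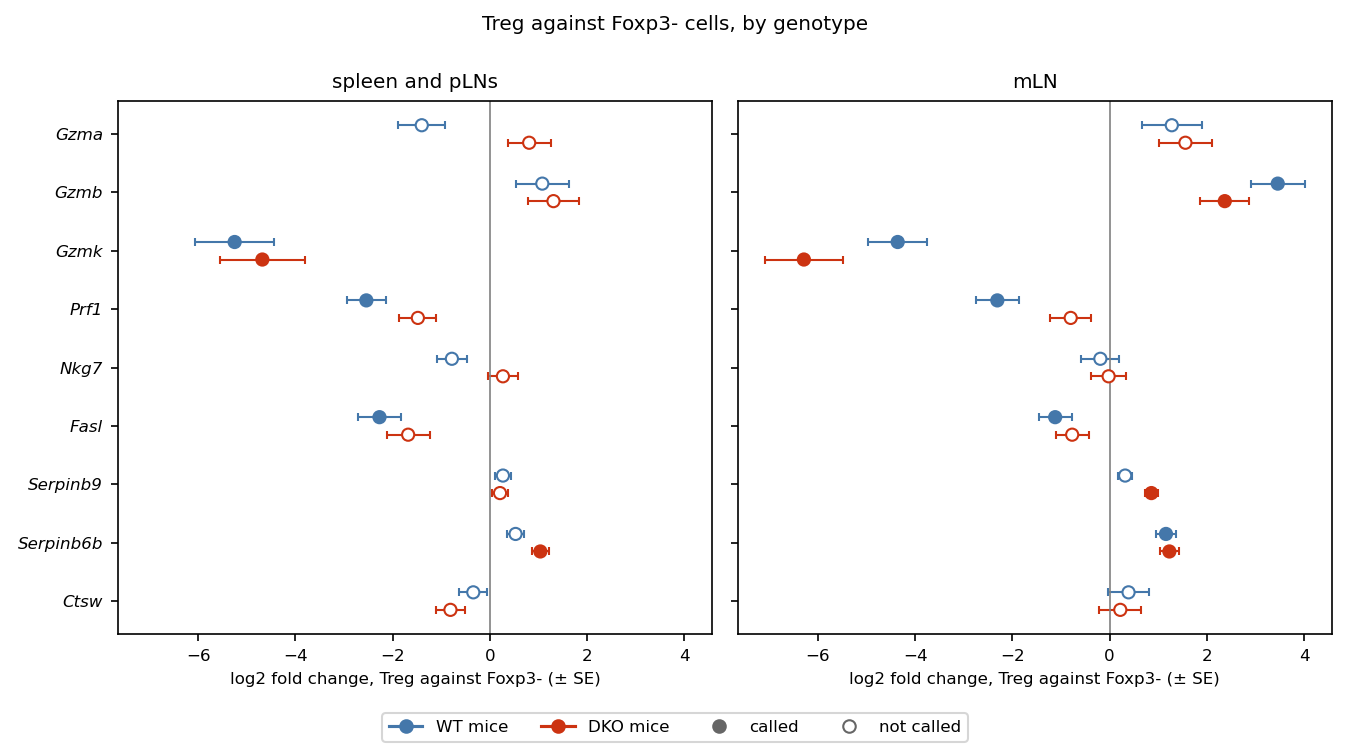
Log2 fold changes of Treg over Foxp3- cells (edgeR, with SE bars) for the 9 genes in WT and DKO mice of both tissues, where filled points passed the test. *Gzmk* passed on the side of Foxp3- cells in all 4 comparisons, *Prf1* and *Fasl* in those of WT mice, and *Gzmb* on the side of Treg cells in mLNs.

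Set against the mean of their WT group, the DKO libraries differed in which members were high. In mLN Treg cells replicate 3 was the highest of the 3 for *Gzma*, *Prf1*, *Nkg7*, *Serpinb9* and *Serpinb6b*, at 6.65, 2.96, 4.36, 1.93 and 3.2 times the WT mean, and replicate 2 for *Gzmb* at 1.85 times. In mLN Foxp3- cells replicate 2 was the lowest for *Gzma*, *Gzmk*, *Prf1*, *Nkg7*, *Fasl*, *Serpinb9* and *Ctsw*, and the highest for *Gzmb* and *Serpinb6b*. *Prf1* was at 0.227, *Ctsw* at 0.192 and *Gzmk* at 0.242 times the WT mean in that library. In spleen and pLN Foxp3- cells replicate 1 was below replicate 2 for every member except *Serpinb6b*. As these are bulk samples, fewer cells that express a gene and less RNA per cell cannot be told apart.

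**Figure D5:**
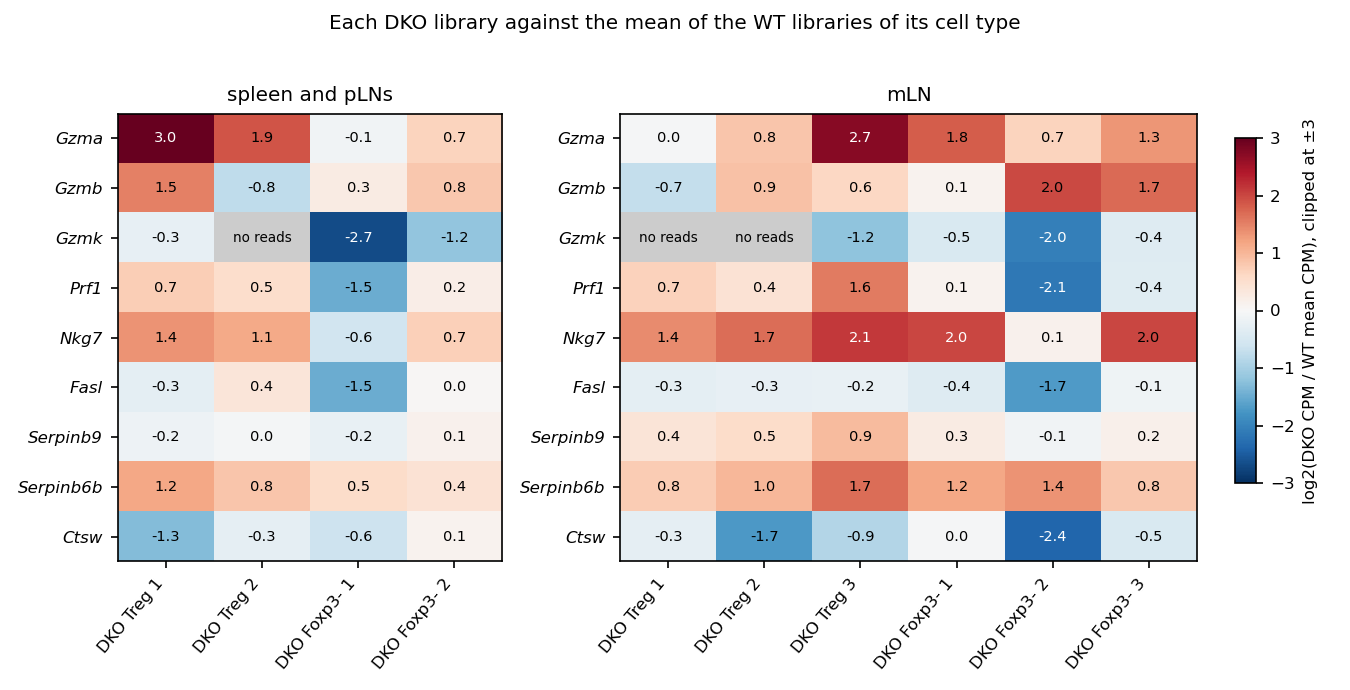
Heat map of the log2 ratio of each DKO library (columns) to the mean of the WT libraries of the same cell type and tissue, for the 9 genes (rows), in CPM, with red for higher, blue for lower and grey for a library without reads. The column of mLN DKO Foxp3- replicate 2 is the lowest of its group for 7 of the 9 genes, with *Prf1* at 0.227 times the WT mean.

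Markers of other cytotoxic cells were examined beside these results. Of a list of 9 natural killer (NK) cell genes, among them the factor *Eomes*, 8 were in each table, and their summed level was 10.3 to 11.7 CPM in mLN WT Treg and 79.4 to 169 CPM in DKO Treg libraries. In mLN DKO Treg cells the sum was mostly *Klrb1c*, which encodes NK1.1, at 72.3 to 155 CPM, against 5.02 to 8.19 CPM in WT. *Ncr1*, the gene of the NK cell receptor NKp46, was at 0, 0 and 0.197 CPM in mLN Treg cells of WT mice, and at 0.917, 0.144 and 0.168 CPM in those of DKO mice. In spleen and pLN Treg cells it had 1 read in each WT library (0.0769 and 0.0696 CPM) and 44 and 33 reads in the DKO libraries (2.52 and 2.25 CPM), and it was called there (4.87, SE 0.77, adjusted p = 0.0122) together with *Klrb1b* and *Klrb1c*, 3 of 8 genes where 1.74% of all genes were called. In mLN DKO Treg cells 3 of 8 were called as well, *Klri2*, *Klrb1c* and *Klrb1b*, where 11.9% of all genes were, and in mLN DKO Foxp3- cells *Klrb1c* was called. *Ncr1* was also called in spleen and pLN Foxp3- cells (3.05, SE 0.60, adjusted p = 0.0438), with 0.456 and 0.482 CPM for WT mice against 2.07 and 5.85 CPM for DKO mice. In Foxp3- cells the list summed to 35.3 to 45.2 CPM in WT mLNs, of which *Eomes* gave 24.3 to 35.3 CPM, and to 60.3 to 145 CPM in DKO mLNs, and *Klra8* was at 0 in WT. In WT Treg cells *Klra8*, *Klra9* and *Klri2* were at 0, and in DKO Treg cells *Klre1*. In spleen and pLNs it summed to 8.98 to 9.99 CPM in WT Treg, 94.8 to 129 CPM in DKO Treg, 83.7 to 138 CPM in WT Foxp3- and 145 to 233 CPM in DKO Foxp3- cells. The part of these transcripts in the levels of *Nkg7*, *Gzma* and *Prf1* was not tested. *Cd8a* was at most 0.579 CPM in every library, and *Cd8b1* was lower in mLN DKO Treg cells (2.80 to 3.78 CPM) than in WT (15.7 to 20.5 CPM).

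Genes of the same machinery were taken from lists and are described by how many passed. Beyond the 3 members, 5 of 8 listed granzymes were in the mLN table, and *Gzmc* rose in DKO Treg cells, from 0.579 to 1.28 CPM in WT to 1.99 to 8.19 CPM in DKO (2.30, SE 0.71, adjusted p = 0.0386). It was 1 of 5 called where 11.9% of all genes were, and edgeR called 0 of 5 in mLN Foxp3- cells and 0 of 7 in either cell type of spleen and pLNs. Of 17 genes of granule loading and release, 3 rose and 1 fell in mLN DKO Treg cells, where 11.9% of all genes were called. They were *Cst7*, which encodes the cathepsin inhibitor cystatin F (1.69, SE 0.47, adjusted p = 0.0231), *Stx11*, a syntaxin of granule fusion (1.26, SE 0.21, adjusted p = 0.00159), *Lamp2* (0.98, SE 0.15), and, lower, the mannose 6-phosphate receptor *Igf2r* (-1.07, SE 0.29, adjusted p = 0.0214). *Cst7* was at 203 to 352 CPM in mLN DKO Treg and at 75.7 to 89.6 CPM in WT Treg cells, without overlap. In mLN Foxp3- cells *Cst7* was at 24.0, 29.4 and 21.2 CPM for WT mice and at 55.8, 323 and 91.8 CPM for DKO mice, the highest being replicate 2, one of the libraries described above as high in joining chain. There 4 of the 17 rose, where 3.43% of all genes were called: *Cst7* (2.66, SE 0.49), *Stx11* (1.34, SE 0.23), the granule proteoglycan *Srgn* (0.82, SE 0.18) and *Lamp2* (0.73, SE 0.15). The medians of the list were 0.11 in Treg and 0.13 in Foxp3- cells, beside 0.00 for all genes. For spleen and pLNs edgeR called 0 of 17 in Treg cells, with a median of 0.08 and beside 1.74% of all genes, and 1 of 17, *Cst7*, in Foxp3- cells, where 0.819% of all genes were called.

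Of the 6 other serpins of granule proteases tested in mLNs, 3 rose in DKO Treg cells, where 11.9% of all genes were called, including *Serpinb1a*, which inhibits neutrophil serine proteases (1.67, SE 0.44, adjusted p = 0.0187), and *Serpinb6a* (0.88, SE 0.20, adjusted p = 0.00917). The third was *Serpinb9b*, at 0 to 0.0822 CPM in WT and 0.336 to 1.44 CPM in DKO Treg cells. In mLN Foxp3- cells *Serpinb1a* (2.20, SE 0.51), *Serpina3g* (1.74, SE 0.23) and *Serpinb6a* (1.03, SE 0.21) rose, where 3.43% of all genes were called. The medians were 1.03 and 1.16, beside 0.00 for all genes. In spleen and pLNs none of 7 was called in Treg cells, beside 1.74% of all genes, and *Serpinb6a* was called in Foxp3- cells (1.24, SE 0.24, adjusted p = 0.0411), beside 0.819%.

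Of 14 genes of death ligands, their receptors and their signalling, 5 fell in mLN DKO Treg cells and none rose, where 3.43% of all genes were called as lower: lymphotoxin alpha *Lta* (-1.46, SE 0.30, adjusted p = 0.00485), *Tnf* (-0.83, SE 0.23, adjusted p = 0.0237), the TNF receptor *Tnfrsf1a* (-0.71, SE 0.21), *Casp8* (-0.60, SE 0.11) and *Ltb*. The list median was -0.32. EdgeR called 0 of the 14 in mLN Foxp3- cells, spleen and pLN Treg cells and spleen and pLN Foxp3- cells, where 3.43%, 1.74% and 0.819% of all genes were called. Between cell types the TNF receptor *Tnfrsf1b* was higher in Treg cells in both genotypes and tissues, from 1.75 (SE 0.18) in DKO spleen and pLNs to 2.21 (SE 0.19) in WT mLNs.

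The transcription factors of cytotoxic lymphocytes moved in both directions in mLN DKO Treg cells, with 4 of 14 higher and 3 lower, beside 11.9% of all genes called in either direction. Between genotypes of spleen and pLNs edgeR called 0 of the 14 in Treg and in Foxp3- cells, where 1.74% and 0.819% of all genes were called. *Bhlhe40* (2.17, SE 0.39, adjusted p = 0.00225) and *Zeb2* (1.55, SE 0.48, adjusted p = 0.0368) rose along with *Batf* and *Runx3*, while *Hopx* (-1.63, SE 0.14, adjusted p = 5.31e-05), *Prdm1*, which encodes Blimp-1 (-1.33, SE 0.31, adjusted p = 0.0092), and *Klf2* fell. *Hopx* was the gene of these lists whose genotype effect differed between cell types in mLNs (interaction -1.61, SE 0.21, adjusted p = 0.00735), with 127 to 134 CPM in WT Treg, 33.9 to 49.2 CPM in DKO Treg, 18.6 to 21.1 CPM in WT Foxp3- and 15.6 to 23.4 CPM in DKO Foxp3- cells. *Bhlhe40* also rose in mLN Foxp3- cells (2.82, SE 0.41), as did *Irf4* (0.95, SE 0.23), the genes of the 14 called there, where 3.43% of all genes were called. *Eomes*, the T-box factor of cytotoxic and memory-like cells, was lower in WT Treg than in WT Foxp3- cells in both tissues. The difference was -2.99 (SE 0.48, adjusted p = 0.00102) in mLNs and -3.21 (SE 0.65, adjusted p = 0.0138) in spleen and pLNs. *Gzmk* and *Prf1* had the same direction. The list moved both ways in WT mLNs, with 5 of 14 higher in Treg cells and 4 lower, beside 6.91% and 3.14% of all genes. The higher ones included *Hopx* (2.71, SE 0.15), *Bhlhe40* (2.26, SE 0.41) and *Prdm1* (2.06, SE 0.32). In WT spleen and pLNs 1 of 14 was higher, *Hopx* (1.56, SE 0.33), and 6 were lower, beside 2.48% and 1.52% of all genes.

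Other products of cytotoxic lymphocytes were chemokines and surface receptors. In mLN DKO Treg cells 7 of 14 rose and 1 fell, where 11.9% of all genes were called, and in spleen and pLNs 5 of 14 rose, where 1.74% were called, with list medians of 1.96 and 1.31 beside 0.00 and 0.02 for all genes. The chemokine gene *Ccl3* was at 0 to 0.0984 CPM in mLN WT Treg and 3.31 to 32.7 CPM in DKO Treg cells, and *Ccl4* rose from 0.164 to 0.331 CPM to 3.23 to 18.2 CPM. The chemokine receptor gene *Cx3cr1*, a marker of effector cells, rose from 0.0822 to 0.579 CPM to 3.06 to 38.2 CPM (6.06, SE 0.99, adjusted p = 0.00133). In spleen and pLN Treg cells *Cx3cr1* was at 0.231 and 0.905 CPM for WT mice, against 8.47 and 8.53 CPM for DKO mice (3.86, SE 0.51, adjusted p = 0.00361). These 3 genes are also expressed by myeloid cells, whose markers moved with them. In mLNs 7 of 8 listed myeloid genes were in the table and *Cd68* and *Itgam* were called, the list summing to 2.85 to 5.1 CPM in WT and 14.5 to 26.4 CPM in DKO Treg cells. Of 8 in spleen and pLNs *Csf1r* and *Itgam* were called, with sums of 3.23 to 4.87 CPM and 12.4 to 33.5 CPM, and of 6 neutrophil genes *Mpo* was called, with sums of 0.0769 to 0.139 CPM and 1.43 to 7.67 CPM. The part of these markers in the chemokine and receptor levels was not tested. Between Foxp3- genotypes *Lag3* was the gene of the 14 that edgeR called in mLNs (2.58, SE 0.53, adjusted p = 0.0194), where 3.43% of all genes were called. In spleen and pLN Foxp3- cells edgeR called 0 of 14, where 0.819% of all genes were called. Between WT cell types 8 of 14 were lower in Treg cells in spleen and pLNs, where 1.52% of all genes were called as lower, and 5 of 14 in mLNs, where 3.14% were, and where *Lag3* was higher (2.44, SE 0.53). The NK receptor gene *Klrd1*, which encodes CD94, was at 0.0984 to 0.331 CPM in mLN WT Treg and 7.08 to 8.26 CPM in WT Foxp3- cells (-4.81, SE 0.61, adjusted p = 0.000205).

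The genes most alike to each member were found by the correlation of log2 CPM over the 12 mLN libraries, among the 9475 genes that averaged 5 CPM or more. These correlations are descriptions, since the libraries share cell type and genotype and no p is given. For *Gzma* they were *Serpinb1a* (r = 0.930), *Atox1* and *Psma7*, and for *Serpinb9* they were *Mcm10* (r = 0.953), *Uhrf1* (r = 0.948) and *Rrm2* (r = 0.947). For *Gzmk* they were *Raver2* (r = 0.985), *Dgka* and *Vipr1*, for *Prf1* *Tbrg4* (r = 0.972), and for *Fasl* *Supt7l* (r = 0.972). *Serpinb6b* was most like 2900026A02Rik (r = 0.969), *Msto1* and the hexokinase gene *Hk2* (r = 0.957), *Gzmb* most like *Cpox* (r = 0.965), and *Ctsw* most like *Tapbpl* (r = 0.962). *Nkg7* had the least close neighbour, *Tmem183a* at r = 0.909.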

How the data were processed

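RNA was sequenced from sorted CD4+ T cells. Reads were mapped by the authors to mm9 with TopHat2 2.1.1, which was set to report a single alignment per read, and counted per RefSeq gene with featureCounts (Subread 1.4.3-p1). The deposited tables hold raw counts, and TPM values that the authors made in a way not given in the sources used here. The 2 tissues are in separate tables and were analysed separately. Genes with at least 1 count were tested with edgeR 4.0.16 (R 4.3.3) by the quasi-likelihood test with TMM normalization and all 4 groups in one fit, on simulated data first, and Benjamini-Hochberg adjustment ran over all genes tested. Genes were called where the adjusted p was 0.05 or less and the change was 1.5-fold or more. For the interaction the adjusted p alone decided. Fold changes are differences of log2 values with their SE, and SDs are of CPM or TPM. CPM values are linear, and correlations were taken over log2 CPM (prior count 2).

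The members, the gene lists and the tests were chosen with earlier results of these data known. Genes of the lists are named as the up to 4 called ones with the largest change per list and comparison, and further called ones by symbol only. Alternatives were DESeq2 1.42.0, its size factors, a filter on low counts, a robust prior, fits of the 2 groups alone, no fold minimum, replicate numbers as a block, and leaving out each library. In mLNs, same-numbered Treg and Foxp3- libraries of a genotype deviated together from their group means (r = 0.276 to 0.329 in WT and 0.145 to 0.518 in DKO). Differently numbered WT libraries gave -0.196 to -0.078. In DKO, Treg replicate 3 with Foxp3- replicate 1 gave 0.174, above the 0.145 of the pair numbered 1. Same-numbered WT and DKO libraries, which come from different mice, reached 0.182. The numbers may thus pair the samples within a genotype, less clearly in DKO than in WT. A block for these pairs changed none of the members' mLN calls. No 2 libraries agreed within sampling noise. Promoter windows came from RefSeq (GRCm38.p6). One further gene is not reported here.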

Additional observations from a re-analysis of the deposited data

Results flagged for a closer look

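In each case below the libraries moved in opposite directions in the 2 tissues under the same comparison. The difference between tissues was not tested, since the tables were normalized separately. *Serpinb9* had a log2 fold change of DKO over WT Treg cells of -0.10 in spleen and pLNs, with both DKO libraries below both WT libraries, and of 0.64 in mLNs, with all 3 DKO libraries above all 3 WT libraries. The former did not pass the test and the latter did.

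*Gzma* in WT mice had a log2 fold change of Treg over Foxp3- cells of -1.4 in spleen and pLNs and of 1.28 in mLNs, without overlap of the cell types in either tissue. Neither passed with all 4 groups in the fit (adjusted p = 0.172 and 0.205), and both were called with the 2 groups fitted alone (-1.4, adjusted p = 3.11e-05, and 1.29, adjusted p = 9.55e-06). *Ctsw* in WT mice had values of -0.34 and 0.39 for the same comparison, again without overlap and without a call (adjusted p = 0.749 and 0.6).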

How the results depend on the processing

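The mLN comparisons rest on 3 libraries a group and the spleen and pLN comparisons on 2, and the calls of the latter were the less stable. Over the alternatives of the 8 comparisons of 2 groups (the interaction and the fit without a fold minimum not counted), 756 log2 fold changes of members kept their side of the threshold and direction, 53 lost a call, 44 gained one with the same sign and 29 changed sign. Members called in DKO over WT Treg cells of spleen and pLNs went from 2 to 0 with a filter on low counts, to 1 with a robust prior, to 1 with the number as a block over the 4 groups (*Gzma*, adjusted p = 0.0506) and to 0 to 4 on leaving out a library. For Foxp3- cells there, 0 became 0 to 3. Treg over Foxp3- cells went from 3 to 1 (block within genotype, *Gzmk* and *Prf1* being lost at adjusted p = 0.0916 and 0.0622), 0 (robust prior), 6 (the 2 groups alone) and 0 to 1 (leaving out a library) in WT, and from 2 to 1 (filter, block over the 4 groups, robust prior), 0 (the 2 groups alone) and 0 to 5 in DKO. The block within genotype lost *Gzmk* (adjusted p = 0.148) and gained *Ctsw* (adjusted p = 0.0361) in DKO. The spleen and pLN pairs of a number correlated at 0.282 in WT and 0.311 in DKO. With 2 libraries a group, the other pairing has the same size and the opposite sign by construction. Same-numbered WT and DKO libraries, which come from different mice, correlated at 0.28 in Treg and 0.303 in Foxp3- cells, so such values cannot mark a mouse. Both cell types of the DKO mice came from the same littermates, but the sources used here do not say that a number marks a mouse. The interaction went from 0 to 0 to 3 on leaving out a library. In mLNs, DKO over WT Treg cells went from 3 to 5 with the 2 groups alone and 3 to 4 on leaving out a library. For Foxp3- cells 2 became 1 with the block over the 4 groups (*Nkg7*, adjusted p = 0.0554), 1 with the robust prior, 0 with the 2 groups alone and 0 to 3 on leaving out a library. The other mLN counts gave 4 to 4 in WT, 4 to 6 in DKO and 0 to 0 for the interaction on leaving out a library.

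Leaving out both spleen and pLN DKO libraries numbered 1, chosen after seeing the data and without knowing which mouse they came from, gave 5 members for Treg cells, 3 for Foxp3- cells, 5 for Treg over Foxp3- cells in DKO and 1 for the interaction. The interaction call was *Gzmb*, which turned to -0.77 between Treg genotypes and was called there (adjusted p = 0.00902). The signs also turned for *Prf1* (0.19), *Fasl* (0.04), *Serpinb9* (0.13) and *Ctsw* (0.10) between Foxp3- genotypes, and *Gzma* (-0.20), *Gzmb* (-0.52) and *Nkg7* (-0.37) between DKO cell types. Leaving out both mLN DKO libraries numbered 2 gave 5 members for Treg cells, 7 for DKO cell types and 1, *Prf1*, for the interaction. The block turned *Nkg7* between mLN DKO cell types to 0.07 (over the 4 groups) or 0.14 (within genotype).

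Signs that changed on leaving out a library were those of uncalled differences. Between spleen and pLN Treg genotypes *Gzmb* ranged from -0.77 to 1.5, *Gzmk* from -6.87 to 0.55 and *Fasl* from -0.30 to 0.35. Between Foxp3- genotypes there *Gzma* ranged from -0.11 to 0.81, *Prf1* from -1.48 to 0.19, *Nkg7* from -0.58 to 0.70, *Fasl* from -1.49 to 0.04, *Serpinb9* from -0.23 to 0.12 and *Ctsw* from -0.63 to 0.10. Between DKO cell types *Gzma* ranged from 0.14 to 1.25 (no change of sign), *Gzmb* ranged from -0.25 to 2.02 and *Nkg7* from -0.24 to 1.04 in spleen and pLNs, and *Nkg7* from -0.46 to 0.23 and *Ctsw* from -0.25 to 0.66 in mLNs.

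Over all genes, 285 genes were called between spleen and pLN Treg genotypes and 134 between Foxp3- genotypes, the filter on low counts, with fewer genes tested, called 24 and 1, the robust prior 114 and 19, DESeq2 663 and 363, fits of 2 groups alone 1256 and 1, and the fit without the libraries numbered 1 called 1283 and 411. Between spleen and pLN cell types, 654 calls in WT became 379 with the filter, 360 with the block within genotype and 2060 with 2 groups alone, and 617 in DKO became 342, 348 and 190, or 2091 without the libraries numbered 1. Between mLN Foxp3- genotypes, 575 became 323 (robust prior), 924 (DESeq2) and 2 (2 groups alone), and between Treg genotypes 2001 became 3249 without a fold minimum. Between mLN cell types 1687 in WT became 2544 with 2 groups alone, and 1885 in DKO became 906, or 2956 without a fold minimum. Interaction calls went from 1 to between 0 and 674 in spleen and pLNs, the latter without DKO Foxp3- replicate 2, and from 47 in mLNs to 118 (block within genotype), 402 (DESeq2) and 538 (without the libraries numbered 2). On leaving out a library, the spleen and pLN counts became 4 to 1696 (Treg genotypes), 1 to 2751 (Foxp3- genotypes), 144 to 198 (WT cell types) and 185 to 1586 (DKO cell types), and those of mLNs 1325 to 1946, 57 to 1453, 1149 to 1263 and 1520 to 2934, with 9 to 462 for the interaction. The shares of all genes printed beside the members move with these counts. In mLN DKO Treg cells *Gzmk* had 2 reads in all and lay under the floor in every library. The causes were not tested.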
